A study of Mus musculus with 4 samples.

Results

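Satellite repeats are short units arranged head to tail in long arrays. They were followed here on both strands in RNA from testes that lack NEF-sp and from heterozygous controls. A row of the repeat categories was taken when its name carried the class Satellite. This gave 8 of the 25745 rows of the table, 4 among the 699 repeat sense rows and 4 among the 699 repeat antisense rows. The 8 rows belong to 5 repeats. GSAT_MM.Satellite.Satellite (GSAT_MM), MMSAT4 and ZP3AR are listed on both strands, SUBTEL_sa only in sense and MurSAT1 only in antisense. GSAT_MM was chosen by its measured difference between the genotypes, so that this difference is described below without a test. The other satellites were taken by name alone.

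All mice were C57Bl/6J adults at postnatal day 60, and every animal carried at least 1 copy of a germline Nef-sp allele with a 23 bp out-of-frame deletion made with the Cas9 nickase. The Nef-sp-/- mice carried the deletion on both alleles. The controls were heterozygous Nef-sp+/- mice, so that no library without the deletion was compared. Total RNA of the whole testis was depleted of ribosomal RNA and sequenced in 2 strand-specific libraries per genotype. It is not stated that the libraries came from separate animals, so the errors measure only the spread between libraries.

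GSAT_MM is the major, or gamma, satellite of the mouse. It forms the pericentromeric heterochromatin beside the centromeres of most chromosomes, where SUV39H enzymes methylate lysine 9 of histone H3 and HP1 proteins bind the mark. Its arrays can be transcribed from either strand, and the transcripts often lack a poly(A) tail, so that total RNA is better suited to see them than poly(A)-selected RNA. NEF-sp is a nuclear exoribonuclease that digests single-stranded RNA from the 3′ end, and the study asked which testicular RNAs change without it. The sequences of the 5 satellites are not paired with these names in the files used here, and none is printed.

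The libraries held between 20659865 and 34442517 reads in the 10 annotation categories of the table. Exon sense reads of Nef-sp itself (2610020H08Rik) stood at 77.5 and 69.8 RPM (reads for every 1000000 reads of the library) in Nef-sp+/- and at 16.7 and 20.3 in Nef-sp-/-, as the labels say. Germ cell markers were abundant, with the 6 genes Ddx4, Sycp3, Tnp1, Prm1, Prm2 and Acrv1 summing to between 10521 and 12599 RPM. The summed Sertoli cell markers lay between 24.0 and 27.8, with 2 of 3 genes listed. The Leydig cell markers summed to between 394.0 and 520.1, and the sum was lowest in Nef-sp-/- replicate 2. In that library Cyp17a1, which gave most of the sum, and Star were lowest, at 324.8 and 49.6 RPM, while Insl3 was highest, at 19.6 RPM. Markers of epididymis and blood summed to between 10.7 and 12.4 over the 4 libraries, with 4 of 6 genes listed. Most of this sum was Alas2, at between 7.69 and 9.96 RPM, while Hbb-b1 lay between 0.435 and 1.07. Of the epididymis, Crisp1 was at 0 reads in 3 of 4 libraries, and Rnase10 had between 25 and 65 reads in each. The part of cell composition in the satellite values was not tested. In whole tissue, fewer cells with satellite RNA and less of it per cell cannot be told apart.

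Reads of all genomic copies of a repeat are summed, and the length and copy number of each repeat are not given, so values compare libraries and not the output of one satellite against another. An interval in RPM is the exact 95% Poisson interval and covers counting error only.

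MMSAT4 made up nearly all satellite reads. All satellite rows together took between 0.172% and 0.180% of the reads of a library, and MMSAT4 between 94.6% and 97.8% of those. GSAT_MM contributed 57 and 102 reads, both strands together, to the Nef-sp+/- libraries, and 178 and 816 to Nef-sp-/- replicates 1 and 2. This was 0.157% (Wilson 95% interval 0.121 to 0.203) and 0.172% (0.141 to 0.208) of the satellite reads in the Nef-sp+/- libraries. In the Nef-sp-/- libraries it was 0.490% (0.423 to 0.567) and 2.19% (2.04 to 2.34). Without MMSAT4, GSAT_MM made up 5.85% and 7.83% of the remaining satellite reads in Nef-sp+/-, against 16.9% and 40.7% in Nef-sp-/-. Nef-sp-/- replicate 2 had the highest share on either base. Wilson intervals, here and below, also cover counting error only.

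GSAT_MM sense reads were rare in Nef-sp+/- testes, with 35 reads, or 1.69 RPM (1.18 to 2.36), in replicate 1 and 74 reads, or 2.15 RPM (1.69 to 2.70), in replicate 2. Nef-sp-/- replicate 1 had 139 sense reads, or 6.59 RPM (5.54 to 7.78). Nef-sp-/- replicate 2 had 564, or 27.3 RPM (25.1 to 29.6). Both Nef-sp-/- libraries lay above both Nef-sp+/- libraries, and Nef-sp-/- replicate 2 stood far above the other 3. The means were 1.92 ± 0.321 in Nef-sp+/- and 16.9 ± 14.6 in Nef-sp-/- (SD, n = 2 each), a ratio of 8.81. Against the Nef-sp+/- mean, replicate 1 alone was 3.43 times and replicate 2 alone 14.2 times as high. The log2 fold change in a fit over the repeat sense reads was 3.05 (standard error 0.464). It was 1.78 without Nef-sp-/- replicate 2 and 3.69 without Nef-sp-/- replicate 1.

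GSAT_MM antisense reads numbered 22 in Nef-sp+/- replicate 1, or 1.06 RPM (0.667 to 1.61), and 28 in replicate 2, or 0.813 RPM (0.540 to 1.17). Nef-sp-/- replicate 1 had 39 antisense reads, or 1.85 RPM (1.31 to 2.53), and its interval overlapped that of Nef-sp+/- replicate 1. Nef-sp-/- replicate 2 had 252, or 12.2 RPM (10.7 to 13.8). The groups did not overlap, but Nef-sp-/- replicate 1 was only 1.97 times the Nef-sp+/- mean, against 13.0 times for replicate 2. The means were 0.939 ± 0.178 and 7.02 ± 7.31 (SD, n = 2 each), so that the spread between the Nef-sp-/- libraries was as large as their mean. The antisense log2 fold change was 2.83 (standard error 0.574), and it was 1.07 without Nef-sp-/- replicate 2 and 3.57 without Nef-sp-/- replicate 1.

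**Figure D1:**
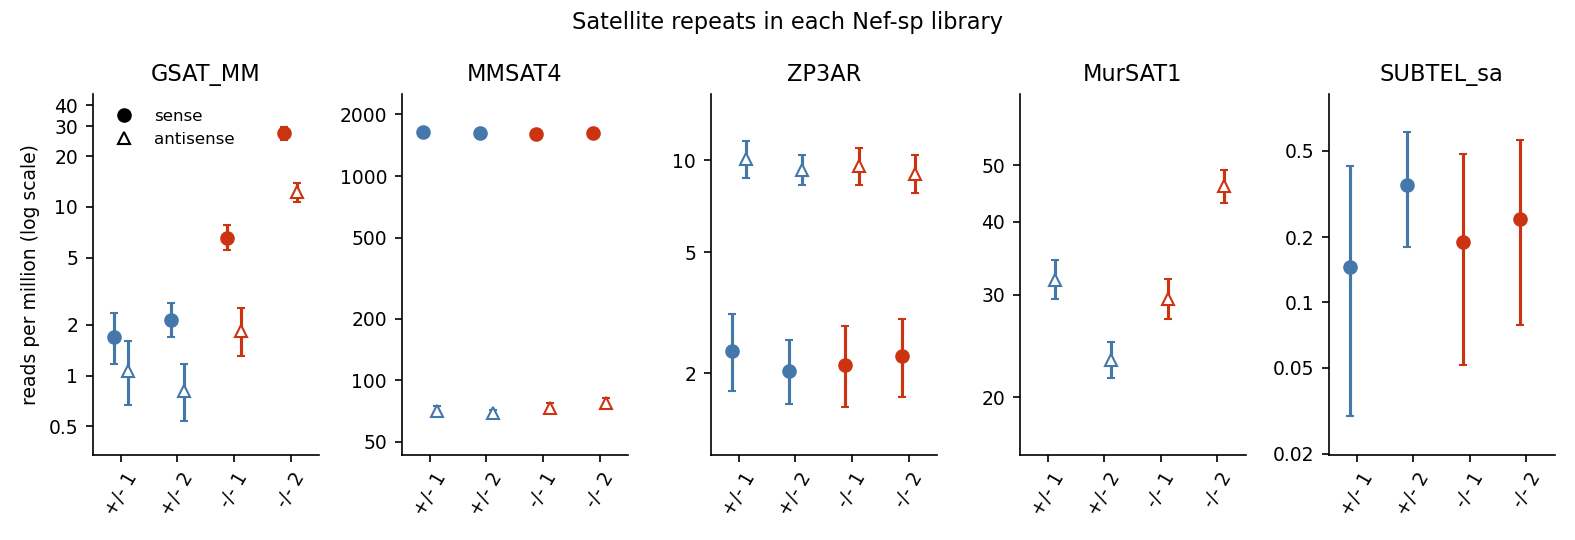
RPM (log scale, a separate axis range in each panel) of the 5 satellites in the Nef-sp+/- (blue) and Nef-sp-/- (red) libraries, with exact 95% Poisson intervals as bars. GSAT_MM stands highest in Nef-sp-/- replicate 2 on both strands, at 27.3 and 12.2 RPM, while MMSAT4 sense stays between 1598 and 1641.

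MMSAT4, the satellite with the most reads, was level across the libraries in sense. It stood at 1641 and 1618 RPM in Nef-sp+/- and at 1598 and 1628.5 in Nef-sp-/-, with overlapping groups. Its log2 fold change of -0.03 (standard error 0.0861) was within the standard error. MMSAT4 antisense reads stood at 71.1 and 68.9 RPM in Nef-sp+/- and at 73.5 and 77.9 in Nef-sp-/-, with a log2 fold change of 0.08 (standard error 0.104). The antisense groups did not overlap in RPM, but they did after TMM scaling within the antisense reads.

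ZP3AR, whose reads were mostly antisense, was at 10.1 and 9.32 antisense RPM in Nef-sp+/- and at 9.57 and 9.04 in Nef-sp-/-. Its sense reads were at 2.37 and 2.03 in Nef-sp+/- and at 2.13 and 2.27 in Nef-sp-/-. On both strands the groups overlapped. The log2 fold changes were -0.01 in sense (standard error 0.196) and -0.09 in antisense (standard error 0.146).

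MurSAT1 antisense reads stood at 31.8 and 23.2 RPM in Nef-sp+/- and at 29.5 and 46.0 in Nef-sp-/-. As for GSAT_MM, the highest library was Nef-sp-/- replicate 2, but replicate 1 lay between the Nef-sp+/- libraries. The log2 fold change was 0.42 (standard error 0.14), the 22nd highest of the 553 antisense repeats tested, and it did not pass the threshold (adjusted p = 0.903 in edgeR). Without Nef-sp-/- replicate 1 it was 0.61 and passed (adjusted p = 3.7e-04 in edgeR), and without Nef-sp-/- replicate 2 it was 0.19 and did not. It was not called in the other alternatives computed for it. After TMM scaling the MurSAT1 groups no longer overlapped, with Nef-sp-/- higher. The share of all antisense repeats that were apart on that scale is not given here, so nothing is drawn from it. SUBTEL_sa, a subtelomeric satellite by its name, had 3 and 12 sense reads in Nef-sp+/- against 4 and 5 in Nef-sp-/-. It did not pass the expression filter, and its Poisson intervals overlapped in all libraries, so no difference was detectable at this depth.

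Among the satellite rows, 7 of 8 passed the expression filter, 3 in sense and 4 in antisense. In sense, 0 of the 2 satellites other than GSAT_MM were called by edgeR's quasi-likelihood test at an adjusted p of 0.05, and DESeq2 called 0 as well. Over all 578 repeat sense features tested, edgeR called 4 (0.692%) and 29 had an unadjusted p below 0.05. In antisense, edgeR and DESeq2 called 0 of the 3 other satellites and 0 of all 553 repeats (0%), of which 13 had an unadjusted p below 0.05. The satellites other than GSAT_MM had a median log2 fold change of -0.02 in sense (2 tested) and 0.08 in antisense (3 tested), beside 0.01 and 0.01 over all repeats tested. GSAT_MM, which was chosen for this difference, had the highest log2 fold change on both strands. The next highest was 1.46 in sense, for MER47B, a DNA transposon with between 6 and 15 reads per library, and 1.13 in antisense, for the ribosomal RNA repeat SSU-rRNA_Hsa.

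In RPM, both Nef-sp-/- libraries lay above both Nef-sp+/- libraries for GSAT_MM on both strands, but GSAT_MM was chosen for its genotype difference. Of the other satellites tested, 2 in sense and 3 in antisense, this held only for MMSAT4 antisense, whose groups overlapped after TMM scaling. MurSAT1 antisense went the other way, with groups that overlapped in RPM but not after TMM scaling. Over all repeats tested, such a separation in RPM held for 15.6% of the sense and 12.1% of the antisense features. Nef-sp-/- replicate 2 was the highest library for 46.4% of all sense and 55.7% of all antisense repeats on this scale, so a maximum in that library was common. After TMM scaling within the strand these shares were 27.2% and 30.2%. Repeat antisense reads as a whole were most frequent in Nef-sp-/- replicate 2, at 2.36% of its reads against between 1.88% and 2.13% in the other libraries, and intron sense reads at 2.39% against between 2.22% and 2.32%. Their part in the satellite values was not tested.

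**Figure D2:**
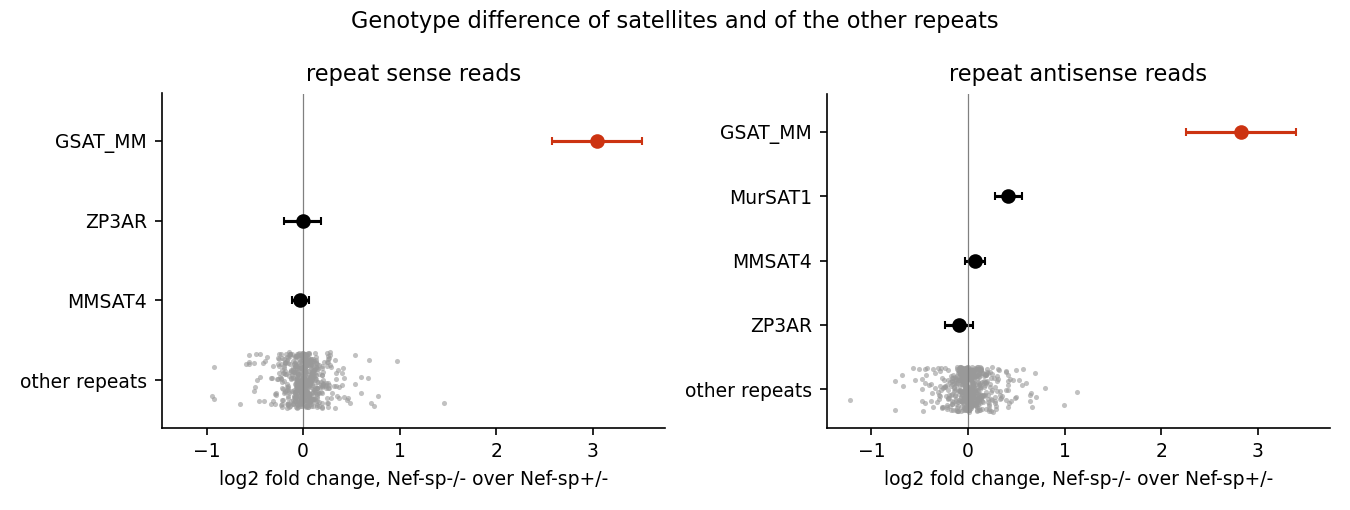
Log2 fold change between genotypes, positive where Nef-sp-/- is higher, for the satellites past the expression filter (points with standard errors, one line each) and for every other repeat (grey points, scattered vertically for display only). GSAT_MM lies at 3.05 in sense and 2.83 in antisense, and the other satellites lie between -0.09 and 0.42.

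The spread between replicates was unusual for GSAT_MM only in the Nef-sp-/- pair. The absolute log2 ratio between the replicates was 0.33 in sense and 0.40 in antisense for Nef-sp+/-, which ranked 119th of 578 and 124th of 553 repeats. For Nef-sp-/- it was 2.05 in sense, the largest of the 578 sense repeats, where the median was 0.17 and the next was 1.54. In antisense it was 2.71, the second largest of 553 repeats, after MER104 with 3.20. MMSAT4 and ZP3AR had a spread of at most 0.09 on either strand between the Nef-sp-/- replicates, and MurSAT1 one of 0.64. With 2 libraries per genotype, a difference between the genotypes and a difference of single libraries cannot be told apart for GSAT_MM.

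**Figure D3:**
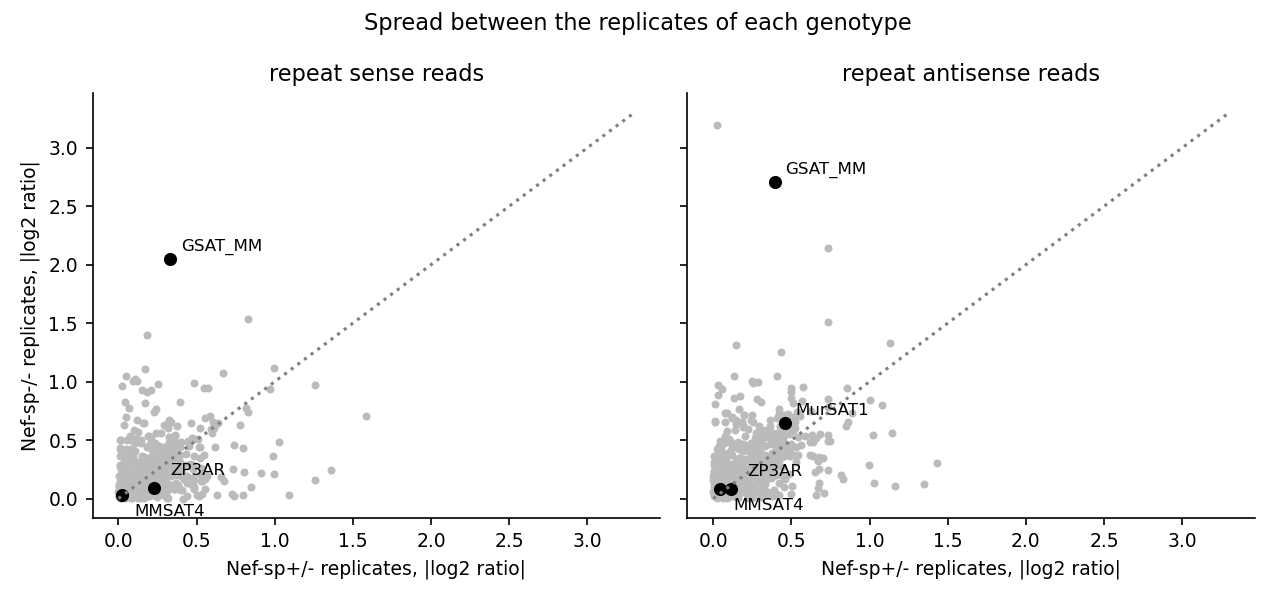
Absolute log2 ratio of RPM between the 2 Nef-sp+/- libraries (horizontal) and the 2 Nef-sp-/- libraries (vertical) for each repeat tested, with satellites in black and equal spread as the dotted line. GSAT_MM lies far above the line, at 2.05 in sense and 2.71 in antisense.

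How the reads of a satellite divide between the strands was not used to choose GSAT_MM and was compared next. Sense means the orientation of the annotated repeat, not that of a gene. Of all GSAT_MM reads, pooled over the 4 libraries, 70.4% were sense (Wilson 95% interval 67.7 to 73.0). Most GSAT_MM reads, 816 on both strands, came from Nef-sp-/- replicate 2, so that the pooled share rests mainly on that library. MMSAT4 was almost entirely sense, with 95.7% (95.6 to 95.8). ZP3AR was the reverse, with 18.7% sense reads (16.5 to 21.1), and MurSAT1 had 3030 antisense reads and no sense row. The table lists only rows with at least 5 reads in total, so that a few MurSAT1 sense reads are possible. MurSAT1 and SUBTEL_sa had 1 row each and could not be compared between strands.

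In each library the sense share of GSAT_MM was above 50%. It was 61.4% (48.4 to 72.9) and 72.5% (63.2 to 80.3) in Nef-sp+/- replicates 1 and 2, and 78.1% (71.5 to 83.5) and 69.1% (65.9 to 72.2) in Nef-sp-/- replicates 1 and 2. Only the interval of Nef-sp+/- replicate 1, with 57 reads, reached below 50%. When sense was tested against antisense within libraries, the log2 ratio of GSAT_MM was 1.29 (standard error 0.142; edgeR adjusted p = 1.5e-06), a fitted sense excess of 2.44 times, with more sense than antisense reads in 4 of 4 libraries. The log2 ratio was 4.48 for MMSAT4 (standard error 0.0584; edgeR adjusted p = 3.9e-16) and -2.11 for ZP3AR (standard error 0.106; edgeR adjusted p = 3.5e-10). All 3 satellites were called, but so were 541 of the 609 repeats tested (88.8%), 315 with more sense and 226 with more antisense reads. A strand bias as such was thus common among the repeats tested. A repeat could pass the filter through the reads of 1 strand alone, which can raise both this share and the median ratio. The median absolute log2 ratio over these repeats was 1.48, so that the bias of GSAT_MM was smaller than the median, while those of MMSAT4 and ZP3AR were larger. In order from most sense to most antisense, MMSAT4 was 56th, GSAT_MM 215th and ZP3AR 519th of 609.

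The strand division did not differ detectably between the genotypes. The mean sense share of GSAT_MM was 67.0% ± 7.88 in Nef-sp+/- and 73.6% ± 6.34 in Nef-sp-/- (SD, n = 2 each), a difference of 6.63 percentage points within the spread of the replicates. By an exact permutation test, two-sided, p was 0.667, also after adjustment over the 3 satellites, and cannot go below 0.333 with 2 libraries against 2. In the fit of both strands, the sense to antisense ratio of GSAT_MM was higher in Nef-sp-/- by 0.24 on the log2 scale (95% interval -0.44 to 0.91, adjusted p = 0.998 from edgeR). These libraries do not exclude a change of the ratio within this interval. The corresponding values were -0.13 (-0.33 to 0.08) for MMSAT4 and 0.07 (-0.38 to 0.52) for ZP3AR, each with an adjusted p of 0.998 from edgeR. Of the 609 repeats, 0 (0%) were called in this comparison by edgeR and 0 by DESeq2, and 21 had an unadjusted p below 0.05.

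**Figure D4:**
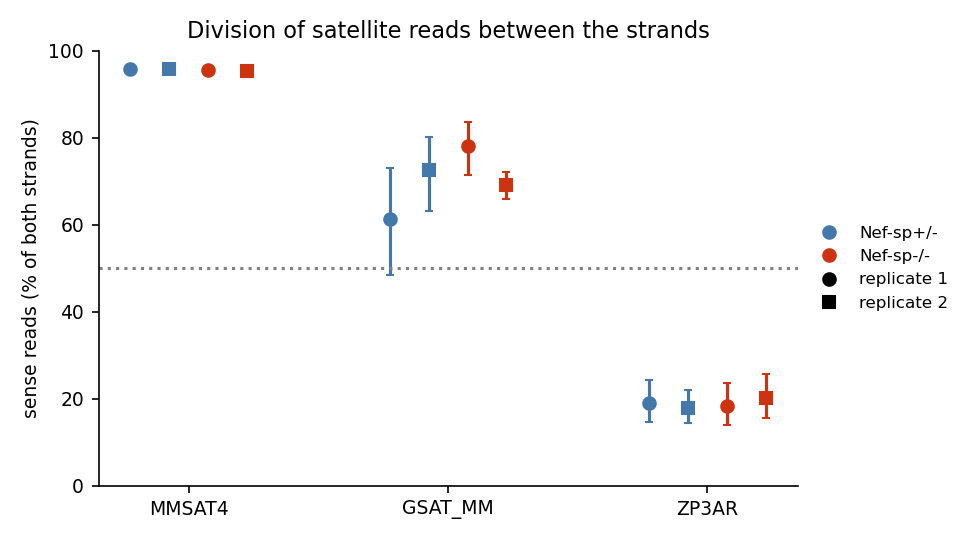
Sense reads as a percentage of both strands for the 3 satellites listed on both strands, per library (blue Nef-sp+/-, red Nef-sp-/-; circles replicate 1, squares replicate 2), with Wilson 95% intervals and a dotted line at an even division. MMSAT4 stays near 96%, GSAT_MM ranges from 61.4% to 78.1% and ZP3AR lies between 17.9% and 20.1%.

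The repeats whose profile over the 4 libraries was most like that of GSAT_MM sense were then sought among the other 1130 sense and antisense repeat features past the filter. Likeness was the Euclidean distance between log2 RPM after each feature was centred on its own mean, with a median distance of 3.10. By far the nearest was GSAT_MM antisense, at 0.838. The next were the sense reads of MER47B at 1.95, MLT1E3 at 2.23, RLTR10B2 at 2.40 (2.396) and Charlie18a at 2.40 (2.397). MER47B and Charlie18a are DNA transposons, MLT1E3 an LTR element of the MaLR class and RLTR10B2 an LTR element of the ERVK class. MER47B, MLT1E3 and Charlie18a rest on between 6 and 23 reads per library. Relative to library size, MER47B and MLT1E3 passed the filter only through the Nef-sp-/- libraries, where they were higher. RLTR10B2, at 13.6 and 12.7 RPM in Nef-sp+/- and at 21.0 and 24.8 in Nef-sp-/-, had tight replicates, unlike GSAT_MM. None of these features but GSAT_MM antisense had a jump in Nef-sp-/- replicate 2 of the size seen in GSAT_MM. The distance also depends on the size of a change, and GSAT_MM was chosen for its genotype difference. Repeats with a high log2 fold change therefore lie nearer to it by construction. This value was 1.46 for MER47B, 0.97 for MLT1E3, 0.78 for RLTR10B2 and 0.74 for Charlie18a. With 4 libraries, profiles of this shape occur among low counts, and the order is a description only, not a sign of shared behaviour.

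**Figure D5:**
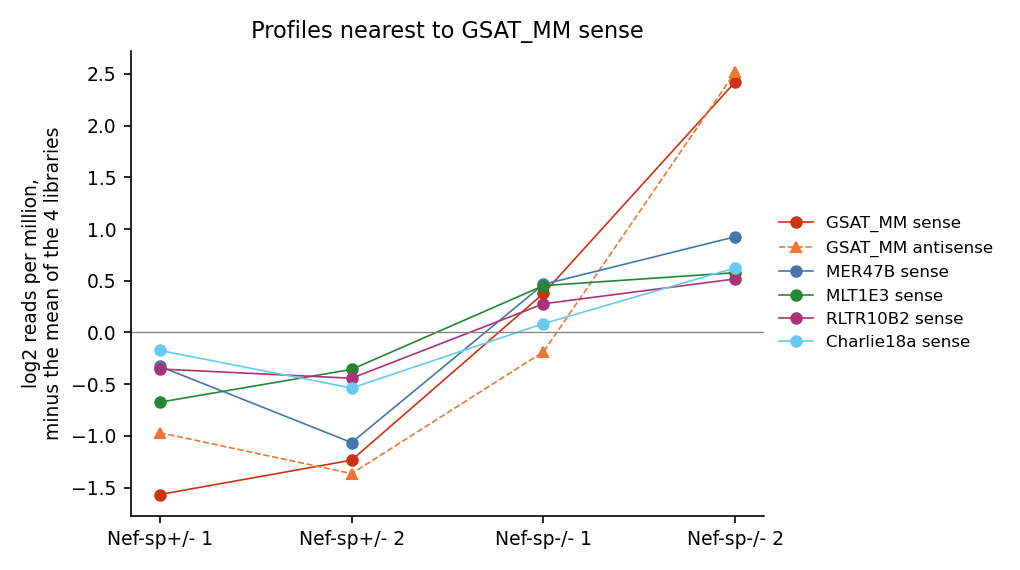
Log2 RPM in each library minus the mean of the 4 libraries for GSAT_MM sense and its 5 nearest features (circles sense, triangles antisense). The lines join the values of one feature and give no order to the replicates. GSAT_MM reaches 2.42 in sense and 2.52 in antisense in Nef-sp-/- replicate 2, and the other features reach at most 0.93.

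Genes that act on pericentromeric chromatin were examined in the same libraries. The list held 54 symbols for H3K9 and H4K20 methylation, HP1, DNA methylation, remodelling, centromere and related functions. All but 5 symbols matched, to 47 genes of the table, and 44 genes passed the expression filter. By edgeR, 0 of the 44 were called in either direction, beside 1 of 10728 genes (0.00932%), which was Nef-sp itself. DESeq2 called 0 of the list, and 3 of the list and 515 of all genes had an unadjusted p below 0.05. The log2 fold changes of the list lay between -0.24 and 0.24, with a median of -0.02, against 0.00 (-2.2e-04) over all genes tested.

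Suv39h2, the testis-rich H3K9 methyltransferase, stood at 28.6 RPM in Nef-sp+/- and 27.6 in Nef-sp-/- on average, so that its log2 fold change was -0.03 (standard error 0.0727; edgeR adjusted p = 0.984). Hells, a remodeller that aids DNA methylation of satellites, had one of 0.01 (standard error 0.0701; edgeR adjusted p = 0.993). The 3 genes with the smallest p were H2afx, which encodes the histone variant H2AX, with a log2 fold change of -0.21, Mbd3, a subunit of the NuRD complex, with -0.24, and Uhrf1, which recruits DNMT1 to hemimethylated DNA, with -0.15. Each had an adjusted p of 0.954 from edgeR. Without Nef-sp+/- replicate 2, Mbd2, which binds methylated DNA, was called at 0.35 on the log2 scale (adjusted p = 0.0261 in edgeR), and in that fit 252 genes were called in all.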

How the data were processed

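RNA of the testis was sequenced in 4 libraries, whose genotype and replicate number come from the labels. The authors trimmed 3′ adapters from the 50-cycle reads, aligned them to mm9 with their own tools, retained only exact matches and deposited unnormalized counts by feature, annotation category and strand. Tool versions, and how a read that matches many genomic copies was assigned, are not given in the sources used here. The latter can change satellite counts. The table also holds the authors' DESeq2 comparison (mean signal, log2 fold change, p-values), which was not used.

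Counts were TMM normalized and tested by quasi-likelihood (edgeR 4.0.16, R 4.3.3), separately for repeat sense, repeat antisense and gene exon sense features past its expression filter (minimum count 10), without covariates. P-values were adjusted by the Benjamini-Hochberg method within each fit. A standard error is the log2 fold change divided by the square root of its F statistic. Strands were compared over 609 repeats listed on both strands, with the library as a block and 1 library size for both strands of a library. The filter was applied to the sense and antisense counts together, so that a repeat could pass through the reads of 1 strand. The strand by genotype term was added in a separate fit, and its intervals are normal 95% intervals. A prior count of 0.5 was added for log2 RPM. Gene symbols of the chromatin list were matched directly or, for 5 genes, through synonyms in a RefSeq gene table.

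The members, lists and tests were chosen with earlier results of these data known. Named are all satellite rows, the 5 nearest profiles, Suv39h2, Hells and the 3 chromatin genes with the smallest p. The fits were also run on simulated counts with the same low dispersion for every feature, and the outcome is not reported here. Such counts do not hold the spread seen between the Nef-sp-/- replicates of GSAT_MM. Alternatives were DESeq2 1.42.0, its size factors in edgeR, the library size of all reads, no filter, 10 counts in every library, a replicate block and each library left out. Figures were drawn with matplotlib 3.10.9.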

Additional observations from a re-analysis of the deposited data

How the results depend on the processing

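The log2 fold change of GSAT_MM stayed positive on both strands in every alternative computed for it (crossed numbers were not). GSAT_MM was chosen for this difference in the same libraries, so that the constant sign is no independent support for it. When each library was left out it ran from 1.78 to 3.69 in sense and from 1.07 to 3.57 in antisense, lowest without Nef-sp-/- replicate 2. With the replicate block it was 2.99 in sense and 2.67 in antisense. The sense to antisense ratio of GSAT_MM was called in all 7 alternatives, between 0.95 and 1.45 on the log2 scale, and its difference between genotypes in none of them, between -0.04 and 0.72. The 4 repeat sense features called became 0 with the library size of all reads, 2 without a filter and between 0 and 10 when a library was left out, 0 without Nef-sp+/- replicate 1 and 10 without Nef-sp-/- replicate 1. The 0 repeat antisense features became 3 with the replicate block and between 1 and 4 when a library was left out. The 1 gene exon sense feature became 2 with DESeq2 and up to 252 without Nef-sp+/- replicate 2, but stayed 1 without either Nef-sp-/- library. The strand by genotype calls were 0 or 1 when a library was left out. The cause of these shifts was not tested. The correlation between deviations of same-numbered libraries was -0.21 in repeat sense and -0.29 in repeat antisense. With the numbers crossed between genotypes, a pairing added after this was seen, 14 sense and 7 antisense repeats were called. The labels do not say that the numbers pair the animals.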

Other observations

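MurSatRep1, a repeat with a similar name whose class in the table is Unknown and which is therefore no satellite by the rule above, was level between the genotypes in sense. It had 403.2 and 396.5 RPM in the Nef-sp+/- libraries against 400.6 and 417.6 in Nef-sp-/-, with 99.6% of its reads in sense. Its antisense reads numbered 31 and 53 in Nef-sp+/- against 38 and 50 in Nef-sp-/-. They gave an antisense log2 fold change of 0.41 with a standard error of 0.25, and the highest RPM value, 2.42, was again that of Nef-sp-/- replicate 2. This row was looked at after its values were seen.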
